A study of Mus musculus with 36 samples.

Results

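Mice whose anterior cruciate ligament (ACL) had been injured were given either an inhibitor of protein kinase C (PKC) or saline, and the transcripts of their knee joints were compared 24 h later. The comparison rests on 6 of the 36 libraries of the series, chosen by their labels alone: 3 libraries of injured knees of mice given the PKC inhibitor and 3 of injured knees of mice given 0.9% saline as vehicle. A further 3 sham libraries, from mice without ACL injury collected 24 h after the procedure, entered the fit and are given beside the members as a reference. Every gene whose counts passed a filter on low values is a member, which left 13823 of 55291 genes. The inhibitor, its dose and its route, and the strain, sex and age of the mice, are not given in the sources used here. The series describes each group as 3 biological replicates. Total RNA was depleted of ribosomal RNA and read as pairs of 100 bases. The labels of these samples give the tissue as knee joint, a protocol attached to other samples of the series speaks of its cartilage, and the libraries held transcripts of cartilage, bone, marrow, muscle, fat, vessels and nerve together. Of the fixed marker lists, that of T and NK cells had only 3 of 15 genes past the filter.

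PKC enzymes are serine/threonine kinases that most receptors reach through phospholipase C, which splits a membrane lipid into diacylglycerol and a calcium-releasing inositol phosphate. Diacylglycerol recruits most isoforms to the membrane, diacylglycerol kinases end that signal, and the RasGRP exchange factors and protein kinase D respond to the same lipid. In leukocytes PKC carries antigen and Fc receptor signals to NF-kB, and in chondrocytes and synovial cells it takes part in the response to load and injury. PKC can also act on the Hippo pathway, a kinase cascade that holds the coactivators YAP and TAZ in the cytoplasm and so away from their TEAD partners on DNA. The title of the series names this PKC-Hippo axis as the target of early treatment after joint trauma.

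The inhibitor libraries differed among themselves and from the vehicle libraries in their make-up. The 7SL genes, whose RNA is a part of the signal recognition particle, took 91.5% and 91.2% of counts in inhibitor libraries 1 and 2 against 98.2% in inhibitor 3 and 96.7% to 98.1% in the vehicle libraries. Counts outside these genes were therefore 11.9 and 11.4 M in inhibitor 1 and 2, and 3.28 to 4.97 M in inhibitor 3 and the vehicle libraries. The mean level of 22 skeletal muscle genes was 3.73, 0.06 and 0.93 on the log2 scale of CPM (counts scaled to the effective library size) in inhibitor 1 to 3, against 1.41, 0.95 and 1.34 in the vehicle libraries. Inhibitor 1 also had the lowest correlations with other libraries (0.844 to 0.887) and the highest share of U3 small nucleolar RNA (53.2% of counts outside 7SL). Some transcripts that were high in the other injured knees were low in inhibitor 1, but not all. Arg1, the arginase of alternatively activated macrophages, chosen after its values were seen, stood at 33.8, 971 and 447 normalised counts with inhibitor, 518, 448 and 997 with vehicle and 10.5, 5.24 and 0 in sham knees, so inhibitor 1 lay far below the other 5 injured libraries and nearer to the sham level. Ankrd1, which stressed muscle also makes, went the other way, with 124 in inhibitor 1, 27.3 to 76.1 with vehicle and 2.33 to 3.93 in sham knees. Timp1, at 74.3 in inhibitor 1, was below the other injured libraries but above the 31.5 to 33.7 of sham knees. The label of inhibitor 1 could not be checked from the data. Normalised counts here are raw counts scaled by TMM to a common library size.

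**Figure D1:**
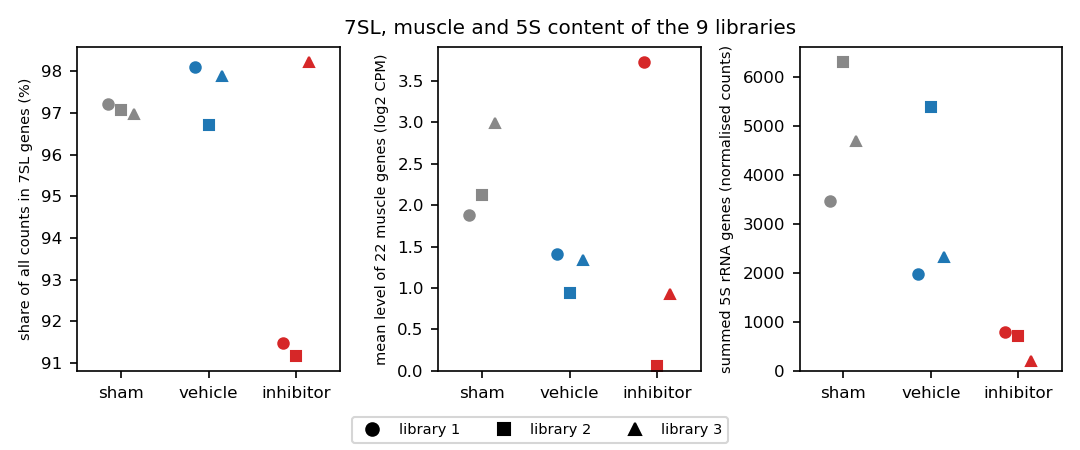
Share of counts in 7SL genes (%, axis not starting at 0), mean level of 22 skeletal muscle genes (log2 CPM) and summed normalised counts of the 5S rRNA genes in each of the 9 libraries, coloured by group with a symbol per library number. Inhibitor 1 and 2 lie near 91% in 7SL share, inhibitor 1 is the highest and inhibitor 2 the lowest in muscle level, and all 3 inhibitor libraries lie below the others in 5S counts.

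With the PKC inhibitor 97 of 13823 tested genes (0.702%) were lower than with vehicle. Among them were 4 of 23 tested genes of nuclear speckles and scaffolds and 16 copies of 5S ribosomal RNA that are identical in sequence. Other fixed lists held at most 1 gene that passed. Srrm2, Safb2, Csf2ra and Plcb2 were 2.83-, 3.23-, 3.13- and 2.64-fold lower (n = 3 each, edgeR adjusted p = 0.0233, 0.0277, 0.0292 and 0.0234). Only 4 genes (0.0289%) were higher: Cbr2, Slfn5, Scamp1 and Taf13. No PKC isoform and no gene of the Hippo pathway passed the test. The libraries held transcripts of several tissues, so fewer cells of a type and less RNA per cell cannot be told apart.

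Of the 13823 genes, 101 passed the quasi-likelihood test of edgeR at an adjusted p under 0.05, 0.731% of those tested. The inhibitor group was lower in 97 (0.702% of tested genes) and higher in 4 (0.0289%). The median log2 fold change of the 97 was −1.55, with a range from −4.99 to −0.96, while the median of all tested genes was 0.04. By type, 73 of the 97 were protein-coding and 16 were copies of 5S rRNA. In all 97 the 3 inhibitor libraries lay below the 3 vehicle libraries, a pattern that 10.4% of all tested genes showed. The opposite pattern was shown by 8.44% of tested genes. An unadjusted p under 0.05 was reached by 8.25% of tested genes with lower and 5.19% with higher inhibitor levels. Inhibitor 3 was the highest of the inhibitor libraries in 56 of the 97. The numbers depended on single libraries: without vehicle 2 no gene passed in edgeR, although 1301 had an unadjusted p under 0.05, and without vehicle 3 only 8 genes passed. Without vehicle 1, 41 lower genes and 1 higher gene passed, and without sham 1, 40 and 1. Without inhibitor 1, 2 or 3, the lower genes were 89, 50 and 244 and the higher genes 3, 23 and 12. DESeq2 gave 305 lower and 50 higher genes with all libraries, and 206 and 11 without inhibitor 1. With only the 6 compared libraries in the fit, 3 lower genes passed. All 97 kept a negative log2 fold change without any 1 of the 9 libraries. This follows from the lack of overlap by which they stood out, so it is no further support. Of the 101 genes, none passed in every one of the 9 fits that left out a library, 23 passed in 7 or 8 of them, 39 in 1 or 2, and Scamp1 and H2-Ob in 0. Srrm2 and Plcb2 passed in 7 of these fits, Safb2 and Csf2ra in 4, Safb and Srsf2 in 2, and Nfkbiz, Xylt1, Brca1 and Espl1 in 1.

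**Figure D2:**
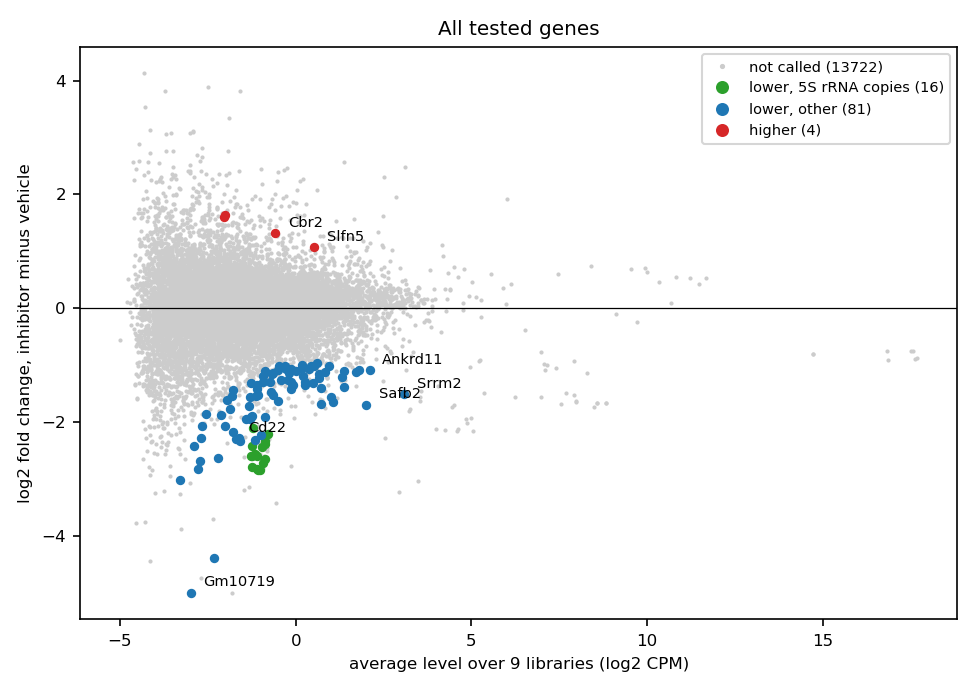
Log2 fold change of inhibitor against vehicle for each of the 13823 tested genes against its average level over the 9 libraries (log2 CPM), with genes that passed the test in colour. The 97 lower genes lie from −4.99 to −0.96, most of them at low to middle levels, and the 4 higher genes above 1.

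**Figure D3:**
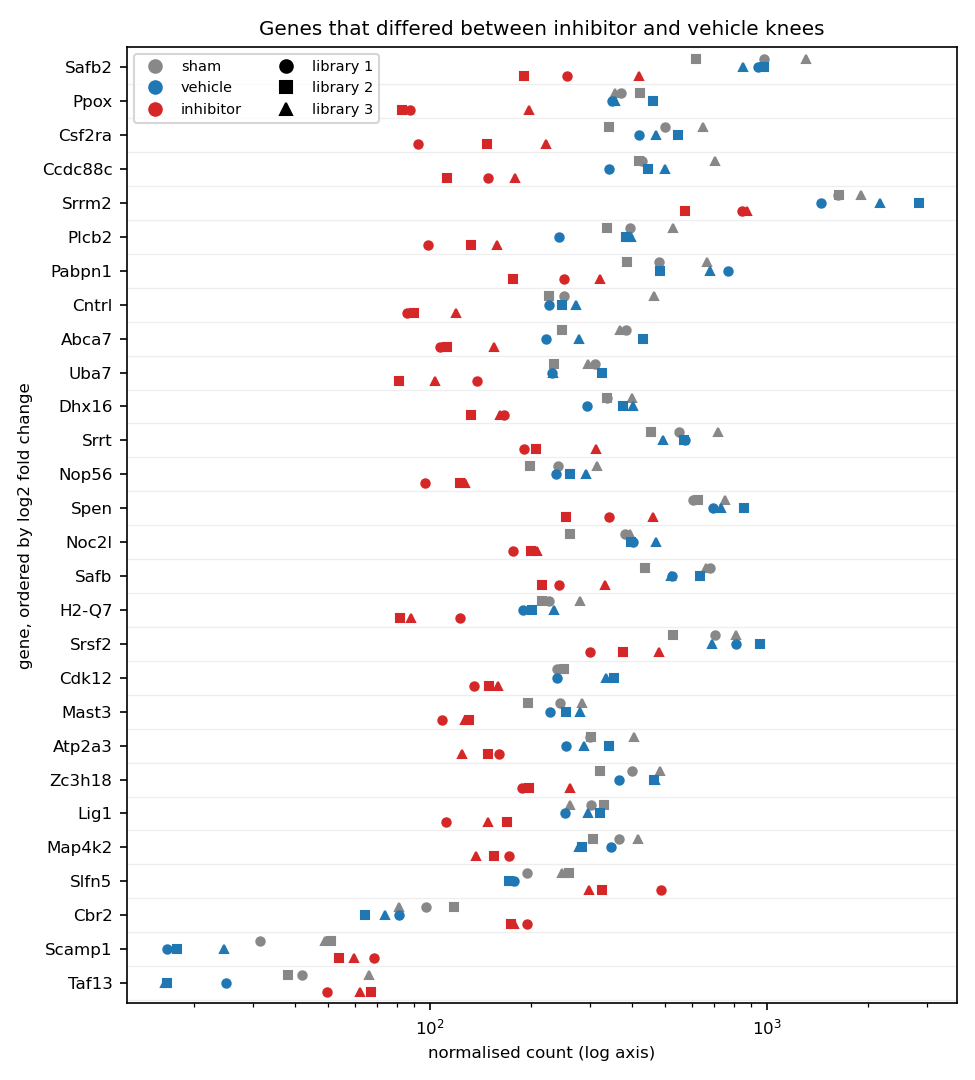
Normalised counts (log axis) in each of the 9 libraries for the 24 protein-coding lower genes of smallest p averaging at least 1 CPM and for the 4 higher genes, coloured by group with a symbol per library number. In every gene the 3 inhibitor libraries lie on one side of the 3 vehicle libraries.

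Transcripts of nuclear speckle and nuclear scaffold proteins, which organise splicing factors and chromatin in the nucleus, were among those that fell. Srrm2, a core scaffold of speckles (chromosome 17, 23790532 to 23824741 on mm10), had 845, 571 and 872 normalised counts with inhibitor, 1452, 2839 and 2176 with vehicle and 1629, 1636 and 1910.4 in sham knees. Its highest inhibitor library thus lay well under its lowest vehicle and sham library (log2 fold change −1.50, SE 0.25, adjusted p = 0.0233). Safb2, a scaffold attachment factor that binds DNA and RNA, had 255, 190.5 and 419 counts with inhibitor, 945, 979 and 849.8 with vehicle and 984, 619 and 1309 in sham knees (log2 fold change −1.69, SE 0.30, adjusted p = 0.0277). Safb, its paralogue, had 242, 216 and 332 with inhibitor, 525, 636 and 521 with vehicle and 681, 437 and 662 in sham knees (log2 fold change −1.10, SE 0.23, adjusted p = 0.0408). Reads that map to both paralogues were counted in each. In both genes the 3 inhibitor libraries were the 3 lowest of all 9. Pabpn1, the nuclear poly(A)-binding protein that sets the length of poly(A) tails, had 251, 177 and 319 with inhibitor and 768, 483 and 681 with vehicle (log2 fold change −1.38, adjusted p = 0.0308), and its exons overlap those of another gene on the same strand. Of the 23 tested genes of the speckle and scaffold list, these 4 passed, 21 had a negative fold change and 12 did not overlap. The list had a median log2 fold change of −0.44 (−0.41 without inhibitor 1). Of all tested genes, 0.702% passed as lower, 46.2% were negative and 10.4% lay below vehicle without overlap.

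Safb and Safb2 lie head to head and share the stretch between them, so their promoters are shown because both genes fell. Safb2 occupies chromosome 17 from 56560965 to 56584585 on the minus strand and Safb from 56584825 to 56606294 on the plus strand, with 239 bases between their outermost exon bases. The sequences below are RefSeq windows on GRCm38.p6, from 250 bases before to 50 after each start, read 5′ to 3′ on the gene's own strand, at chr17:56584536-56584835 for Safb2 and chr17:56584732-56585031 for Safb. Capitals mark the 104 bases that both windows hold, on opposite strands.
Safb2: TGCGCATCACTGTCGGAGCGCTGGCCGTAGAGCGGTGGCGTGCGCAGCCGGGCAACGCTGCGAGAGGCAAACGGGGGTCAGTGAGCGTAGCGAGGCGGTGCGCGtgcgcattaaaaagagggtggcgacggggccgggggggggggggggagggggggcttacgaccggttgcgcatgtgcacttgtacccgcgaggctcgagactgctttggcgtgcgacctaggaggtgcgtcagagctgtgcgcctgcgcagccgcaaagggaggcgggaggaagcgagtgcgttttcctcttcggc
Safb: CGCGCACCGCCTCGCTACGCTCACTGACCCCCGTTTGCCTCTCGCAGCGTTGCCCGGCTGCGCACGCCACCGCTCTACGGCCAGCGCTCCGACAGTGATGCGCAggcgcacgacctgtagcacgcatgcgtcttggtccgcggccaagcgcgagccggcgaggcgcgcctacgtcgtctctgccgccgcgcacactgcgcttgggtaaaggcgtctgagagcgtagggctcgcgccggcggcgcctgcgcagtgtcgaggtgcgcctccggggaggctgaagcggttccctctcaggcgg
The windows are rich in G and C (68.7% in Safb2 and 72.0% in Safb) and hold 36 and 47 CpG pairs, against a median of 20 over the promoter windows of tested protein-coding genes.

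Other proteins that process or bind nuclear RNA had lower transcripts as well. Srsf2, an SR protein that selects exons, had 300.0, 376 and 479 normalised counts with inhibitor against 809, 958 and 687 with vehicle and 701, 528 and 811 in sham knees (log2 fold change −1.09, SE 0.23, adjusted p = 0.0417). No inhibitor library reached the lowest vehicle or sham library. Of 18 tested SR proteins and their kinases, Srsf2 alone passed, 14 had a negative fold change and the median was −0.27 (−0.16 without inhibitor 1). The kinases Clk1 and Clk3, which phosphorylate SR proteins, had log2 fold changes of −0.67 (adjusted p = 0.161) and −0.71 (adjusted p = 0.123). Dhx16, a helicase that acts on the spliceosome before its catalytic step, had 166, 132 and 162 against 292, 376 and 401 (log2 fold change −1.22, SE 0.20, adjusted p = 0.0211). Srrt, which links the nuclear cap-binding complex to RNA decay and miRNA processing, had 191, 207 and 312 against 573, 568 and 492 (log2 fold change −1.21, adjusted p = 0.0282), with a miRNA gene inside it on the same strand. Zc3h18, a partner of the same cap-binding complex, was 2.01-fold lower (adjusted p = 0.0432). By contrast, 21 tested hnRNP and core spliceosome genes had a median of 0.05, with 10 negative and 11 positive fold changes and none that passed (2 lower and 0 higher at an unadjusted p under 0.05, 0 lower and 0 higher in DESeq2). Within that list Snrnp70, the U1 protein, reached −1.08 (adjusted p = 0.172).

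Transcripts of several transcription and chromatin proteins fell. Spen, a corepressor of nuclear receptor and Notch targets, had 339.8, 253 and 461 normalised counts with inhibitor and 691, 858 and 731 with vehicle (log2 fold change −1.12, SE 0.22, adjusted p = 0.036). Cdk12, the kinase that phosphorylates RNA polymerase II on long genes, had 136, 149.6 and 159.7 against 239, 353 and 334 (log2 fold change −1.06, adjusted p = 0.0276). Ankrd11, a chromatin coregulator chosen after its values were seen, was lower in each library (407, 356 and 554 against 796, 1049.6 and 928, adjusted p = 0.0432). Noc2l, an inhibitor of histone acetylation, was 2.16-fold lower (adjusted p = 0.0248). Nop56, a core protein of the ribonucleoprotein that methylates ribosomal RNA, was 2.28-fold lower (adjusted p = 0.0248), and it hosts small nucleolar RNA genes on its strand. Of 22 tested histone methyltransferases and chromatin regulators, 19 had a negative fold change and 10 did not overlap, yet none passed (median −0.26; 8 lower and 0 higher at an unadjusted p under 0.05, 5 lower and 0 higher in DESeq2). The share of all tested genes was 46.2% for a negative fold change, 10.4% for no overlap below vehicle and 8.25% for lower at that unadjusted p. Setd1a, Kmt2b, Setd1b and Smarca4 had the largest changes among the genes of this list averaging at least 1 CPM. Their log2 fold changes were −1.05, −0.92, −0.88 and −0.87, with adjusted p-values of 0.0792, 0.0807, 0.086 and 0.0865.

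Transcripts of the drug target itself were not among those that passed. Of 9 PKC genes, 8 were tested and none passed (1 lower and 1 higher at an unadjusted p under 0.05, 0 lower and 0 higher in DESeq2). Prkca and Prkcb, which respond to calcium as well as diacylglycerol, had log2 fold changes of 0.17 and 0.39 (adjusted p = 0.819 and 0.563). Among the isoforms that need diacylglycerol but not calcium, Prkcd stood at −0.60, Prkce at −0.37, Prkch at 0.40 and Prkcq at 0.27, with a smallest adjusted p of 0.353 in Prkcd. Prkci, an atypical isoform that does not need diacylglycerol, had 98.3, 94.7 and 94.8 normalised counts with inhibitor, 59.8, 39.2 and 49.1 with vehicle and 60.5, 72.1 and 35.8 in sham knees. Its inhibitor libraries lay above the vehicle libraries without passing the test (log2 fold change 0.96, SE 0.30, adjusted p = 0.158). A PKC inhibitor acts on the enzyme, so these levels do not measure whether the kinase was blocked.

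Upstream of PKC, a phospholipase C did pass. Plcb2, the G protein-activated isoform of blood cells (chromosome 2, 118707517 to 118728438), had 99, 132 and 158 normalised counts with inhibitor, 243, 383 and 397 with vehicle and 393, 337 and 526 in sham knees (log2 fold change −1.40, SE 0.25, adjusted p = 0.0234). All 3 inhibitor libraries were below all 6 others. Over the 11 tested phospholipase C genes the median was −0.12, with 6 negative fold changes, and Plcg2, the isoform downstream of the B-cell receptor, reached −0.66 (adjusted p = 0.264) on that scale. Of 12 tested diacylglycerol kinases and RasGRPs, none passed and 9 had a negative fold change (median −0.27, or −0.57 without inhibitor 1; 1 lower and 1 higher at an unadjusted p under 0.05, 0 lower and 0 higher in DESeq2). Rasgrp2, the exchange factor of platelets and neutrophils, lay lower in all 3 inhibitor libraries (165, 128 and 221 against 241, 323 and 372, log2 fold change −0.88, adjusted p = 0.115). Other signalling genes that passed were Ccdc88c, Mast3, Map4k2 and Atp2a3. Ccdc88c, a regulator of Wnt and G protein signalling (chromosome 12, 100911523 to 101029056), had 149, 113 and 179 against 341, 446 and 501 (log2 fold change −1.55, SE 0.25, adjusted p = 0.0211). The kinases Mast3 and Map4k2 were 2.07-fold and 1.95-fold lower (adjusted p = 0.0325 and 0.0412). Atp2a3, a calcium pump of the endoplasmic reticulum in blood cells and endothelium, was 2.03-fold lower (adjusted p = 0.0384).

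No gene of the Hippo pathway passed. Of 14 tested core genes, 11 had a positive and 3 a negative fold change, where 46.2% of all tested genes were negative. In all 3 inhibitor libraries 4 lay above the vehicle libraries and 1 below, patterns shown by 8.44% and 10.4% of all tested genes. The median was 0.15 (0.15 without inhibitor 1; 0 lower and 2 higher at an unadjusted p under 0.05, 0 lower and 0 higher in DESeq2). Yap1 had 328, 254 and 270.0 normalised counts with inhibitor, 214, 171 and 199 with vehicle and 208, 218 and 206 in sham knees (log2 fold change 0.54, SE 0.19, adjusted p = 0.216). Wwtr1, which encodes TAZ, had 639, 392 and 479 with inhibitor, 306, 269 and 278 with vehicle and 197, 325 and 241 in sham knees (log2 fold change 0.82, SE 0.23, adjusted p = 0.115). Both were higher in every inhibitor library than in any vehicle library. The 9 tested TEAD factors and cofactors had a median of 0.45, which was 0.15 without inhibitor 1, the highest of the 6 libraries in 7 of them (0 lower and 2 higher at an unadjusted p under 0.05, 0 lower and 0 higher in DESeq2). That library was also the highest of the 6 in 11 of 12 endothelial and 22 of 22 muscle genes, and their part in these medians was not tested.

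Established targets of YAP and TAZ had no common direction. Their 18 tested genes had a median of 0.07, with 8 negative and 10 positive fold changes and none that passed (2 lower and 3 higher at an unadjusted p under 0.05, 0 lower and 0 higher in DESeq2). Ccn1 had 70.5, 60.4 and 79.2 normalised counts with inhibitor, 109.7, 99.8 and 120.0 with vehicle and 51.2, 64.2 and 56.6 in sham knees (log2 fold change −0.66, SE 0.24, adjusted p = 0.238). Ccn2, like Ccn1 a matricellular protein induced by stretch, had 166, 152 and 186 with inhibitor, 244, 204 and 262 with vehicle and 145, 113 and 132 in sham knees (log2 fold change −0.50, SE 0.20, adjusted p = 0.278). In both genes all 3 inhibitor libraries were below the vehicle libraries. Ankrd1, a target that stressed muscle also makes, had 124, 40.1 and 44.1 with inhibitor against 56.5, 76.1 and 27.3 with vehicle, and its positive fold change (0.38, adjusted p = 0.764) turned to −0.34 without inhibitor 1.

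Of 10 tested myeloid growth factor receptors, 1 fell. Csf2ra, the ligand-binding chain of the receptor for the growth factor GM-CSF (chromosome 19, 61223957 to 61228429), had 92.3, 148 and 222 normalised counts with inhibitor, 419, 544 and 471 with vehicle and 501, 341 and 649 in sham knees (log2 fold change −1.65, SE 0.30, adjusted p = 0.0292). Even the highest inhibitor library was below every sham library. All 10 had a negative fold change (median −0.56, or −0.30 without inhibitor 1), and 4 did not overlap, but Csf2ra alone passed. Among all tested genes, 46.2% were negative and 10.4% lay below vehicle without overlap. Csf2rb, the shared signalling chain, stood at −0.37 (adjusted p = 0.556) and Csf3r, the receptor of neutrophil growth factor, at −0.56 (adjusted p = 0.493). Nfkbiz, a nuclear cofactor that NF-kB needs at a subset of inflammatory genes, had 39.8, 75.6 and 58.4 against 123, 144 and 134 and was the single gene to pass among 19 of the NF-kB and Toll-like receptor list (log2 fold change −1.19, adjusted p = 0.0458; list median −0.06). Single genes outside these lists passed as well. Abca7, a lipid transporter of phagocytes, was 2.49-fold lower (adjusted p = 0.0384). Uba7, the enzyme that activates the ubiquitin-like ISG15, was 2.45-fold lower (adjusted p = 0.0248), and H2-Q7, a nonclassical MHC class I gene whose reads can be shared with near copies, 2.13-fold (adjusted p = 0.0373). Uba7 shares exon bases with a predicted gene on its strand.

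Of 20 tested genes of the B lineage, 1 fell. Cd22, the sialic acid-binding inhibitory receptor of B cells, had 7.5, 17.1 and 20.8 normalised counts with inhibitor, 46.5, 92.7 and 79.1 with vehicle and 100.0, 72.1 and 58.5 in sham knees. Within the list 15 had a negative and 5 a positive log2 fold change, the highest at 1.74. In all inhibitor libraries 10 lay below the vehicle libraries and 1 above, patterns shown by 10.4% and 8.44% of all tested genes. Cd22 alone passed (list median −0.57, or −0.38 without inhibitor 1). The summed level of the list, untested members included, was 793, 994 and 1269 with inhibitor, 1547, 1478 and 1491 with vehicle and 1980.2, 2532 and 1758 in sham knees. Ighm, the heavy chain of IgM, had 240.0, 309 and 378 against 445, 453 and 447 (log2 fold change −0.54, adjusted p = 0.365). Outside the list, and chosen after their values were seen, Siglecg, H2-Ob, Bcl11a and Fam129c, which B cells use or are known to express, also passed, Fam129c with exon bases shared with Pgls on its strand. With each of the 9 libraries left out in turn, H2-Ob passed in 0 fits, Siglecg and Fam129c in 2 and Bcl11a in 7. Siglecg, an inhibitory lectin, had 11.3, 21.4 and 45.4 against 89.7, 107 and 81.8 (adjusted p = 0.0373), and Bcl11a, a transcription factor that lymphoid development needs, 26.3, 37.8 and 28.6 against 78.1, 103 and 94.1 (adjusted p = 0.0248). In DESeq2, 4 of the 20 passed, all lower.

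Markers of other marrow cells did not pass, and their directions differed. In 5 of 6 tested genes of primary neutrophil granules, which form in immature granulocytes, the fold change was negative (median −0.70; 4 lower and 0 higher at an unadjusted p under 0.05, 0 lower and 0 higher in DESeq2). Mpo, the myeloperoxidase of those granules, had 329, 369 and 296 with inhibitor, 525, 801 and 574 with vehicle and 957, 675 and 1601 in sham knees (log2 fold change −0.93, adjusted p = 0.149). Genes of secondary granules and mature neutrophils had a median of −0.17, with 7 of 12 negative and 5 positive, and a median difference from vehicle of −0.46, 0.42 and −0.36 in inhibitor 1, 2 and 3. The summed level of that list, untested members included, was 10328, 19669 and 9143 with inhibitor and 11634, 8839 and 10468 with vehicle, so inhibitor 2 was the highest. S100a9, a calcium-binding protein abundant in neutrophils, had 4054, 7009.9 and 2617 against 3222, 2012 and 3065 (log2 fold change 0.72, adjusted p = 0.34). Red cell genes were negative in 12 of 13 (median −0.63, or −0.50 without inhibitor 1; 5 lower and 0 higher at an unadjusted p under 0.05, 1 lower and 0 higher in DESeq2), and Sptb, the erythroid spectrin, had 521, 402 and 669.8 with inhibitor against 911, 1174 and 855 with vehicle (adjusted p = 0.0834). The summed level of the 13 red cell genes was 3869.5, 4954 and 6906 with inhibitor, 7050.2, 13263 and 5879 with vehicle and 10592, 10496 and 8069.6 in sham knees, with overlap between the groups. The part of marrow content in the leukocyte results was not tested.

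The genes that rose were few. Cbr2, a carbonyl reductase that resident macrophages express, had 195, 175 and 178 normalised counts with inhibitor, 81.4, 64.2 and 73.7 with vehicle and 97.7, 118 and 81.1 in sham knees (log2 fold change 1.32, SE 0.22, adjusted p = 0.0233). The 3 inhibitor values were close together and all above the 6 others. Slfn5, a Schlafen protein inducible by interferon (chromosome 11, 82951349 to 82964840), had 487, 326 and 297 with inhibitor, 178, 172 and 176 with vehicle and 194, 259.6 and 247 in sham knees, the highest in inhibitor 1 (log2 fold change 1.08, SE 0.22, adjusted p = 0.0386). The other 6 tested Schlafen genes did not pass. Scamp1, a membrane protein of secretory vesicles, had 68.3, 53.8 and 59.7 against 16.6, 17.8 and 24.6 and 31.4, 51.1 and 49 in sham knees (adjusted p = 0.0461). Taf13, a subunit of the transcription factor TFIID, had 49.5, 67 and 62.3 against 24.9, 16.6 and 16.4 and 41.9, 38 and 66 (adjusted p = 0.0497). In Scamp1 and Taf13 the vehicle libraries were the lowest of the 9. With each of the 9 libraries left out in turn, Cbr2 passed in 7 fits, Slfn5 in 2, Taf13 in 1 and Scamp1 in 0.

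Some other markers of resident macrophages lay on the same side as Cbr2 without passing. Mrc1, the mannose receptor, had 360.0, 265 and 219 normalised counts with inhibitor, 146, 149.8 and 172 with vehicle and 151, 198 and 145 in sham knees (log2 fold change 0.85, SE 0.22, adjusted p = 0.0962). C1qc, a chain of complement C1q, had 207, 251 and 301 against 164, 147 and 192 (log2 fold change 0.59, adjusted p = 0.216). Mgl2, a galactose-binding lectin chosen after its values were seen, had 48, 10.1 and 33.7 with inhibitor, 3.32, 3.57 and 5.46 with vehicle and 44.2, 38 and 58.5 in sham knees (adjusted p = 0.0516). Together with Lyve1 (72.8, 42.9 and 51.9 against 29.9, 17.8 and 13.6) these made 5 of 23 tested monocyte and macrophage genes above the vehicle libraries in every inhibitor library, and Spp1, which encodes osteopontin, was the 1 below (456, 1097 and 1389 against 1613, 1619 and 1816). Such patterns above and below vehicle were shown by 8.44% and 10.4% of all tested genes, and the other 17 genes of the list overlapped. The list median was 0.22 (0.30 without inhibitor 1), with 14 positive and 9 negative fold changes.

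No cartilage gene passed the test in edgeR, while 7 did in DESeq2, all lower, and 11 had an unadjusted p under 0.05 in edgeR. All 17 tested genes had a negative fold change, 11 did not overlap, and the median was −1.06 (−1.02 without inhibitor 1). For comparison, 46.2% of all tested genes were negative and 10.4% lay below the vehicle libraries in all 3 inhibitor libraries. Lower levels at an unadjusted p under 0.05 were found in 8.25%. Col2a1, the main collagen of cartilage, had 947, 847 and 2438 normalised counts with inhibitor, 5955, 4240.0 and 6768 with vehicle and 5775, 4667 and 16403 in sham knees (log2 fold change −2.01, SE 0.56, adjusted p = 0.162). Col11a2, a collagen of the same fibrils, had 564, 462 and 1290.3 with inhibitor, 2368, 2403 and 2380.2 with vehicle and 2269, 2169.7 and 5018 in sham knees (log2 fold change −1.63, SE 0.43, adjusted p = 0.128). In both, sham 3 was far above the other sham libraries and inhibitor 3 above inhibitor 1 and 2. Col10a1, a collagen of hypertrophic cartilage, and Col27a1 had log2 fold changes of −1.37 (adjusted p = 0.229) and −1.45 (adjusted p = 0.257). The smallest adjusted p in the list was 0.0688, in Col9a1.

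By their median, bone genes lay lower in inhibitor 1 and 2 and did not in inhibitor 3. All 13 tested osteoblast and osteocyte genes had a negative fold change (median −0.48), but the median difference from vehicle was −1.23, −0.84 and 0.22 in inhibitor 1, 2 and 3, so inhibitor 3 lay on the other side. None passed (1 lower and 0 higher at an unadjusted p under 0.05, 1 lower and 0 higher in DESeq2). Col1a1, the main collagen of bone and tendon, had 21716, 18357 and 45726 against 59264, 61911 and 68285 (log2 fold change −1.14, SE 0.43, adjusted p = 0.247). In Col1a1 inhibitor 3 was thus also below the vehicle libraries. Prg4, which encodes the lubricant lubricin, had 1095, 3149.9 and 2318 with inhibitor, 6091, 4422 and 6431 with vehicle and 963, 545 and 1856 in sham knees (log2 fold change −1.37, SE 0.47, adjusted p = 0.243), so that all 3 inhibitor libraries lay below the vehicle libraries, while inhibitor 1 was within the sham range and the other two were above it. Xylt1, which starts the sugar chains of proteoglycans and was chosen after its values were seen, did pass (75.8, 112 and 64.9 against 208, 151 and 254, adjusted p = 0.0411). The protease inhibitor Timp1 had 74.3, 378 and 245 against 425, 254 and 394 (log2 fold change −0.61, adjusted p = 0.621) and the 16 tested proteases and inhibitors had a median of 0.04. Tendon and ligament genes were positive in 8 of 8 (median 0.94), with differences of 0.96, −0.21 and 1.17 in inhibitor 1 to 3 and none that passed (0 lower and 2 higher at an unadjusted p under 0.05, 0 lower and 0 higher in DESeq2).

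Muscle, fat and vessel genes varied between inhibitor libraries more than between groups. The summed level of the 22 muscle genes was 130228, 7403 and 16076 in inhibitor 1 to 3, 24208, 15118 and 20784 with vehicle and 25018, 29094 and 58733 in sham knees. The fast myosin Myh2 had 2217, 119 and 129.8 with inhibitor and 181, 74.9 and 159.6 with vehicle. All 22 muscle genes had a positive fold change (median 0.94), all overlapped, and the median became −0.71 without inhibitor 1. Of 12 endothelial genes 10 were positive and of 10 adipocyte genes 7, and both medians also turned negative without inhibitor 1 (endothelial 0.70, then −0.35, and adipocyte 0.50, then −0.52). With the muscle level of each library as a covariate, 277 genes were lower and 49 higher, all 97 among the 277.

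Inflammatory transcripts were low in inhibitor 1 above all. Of 19 tested cytokines and chemokines, 15 had a negative fold change and none passed (median −0.62, or −0.25 without inhibitor 1; 2 lower and 1 higher at an unadjusted p under 0.05, 1 lower and 0 higher in DESeq2), and inhibitor 1 was the lowest of the 6 libraries in 16. The median difference from vehicle was −2.04, 0.07 and −0.62 in inhibitor 1, 2 and 3. Il1b, the cytokine interleukin 1 beta, had 30.0, 359 and 139 normalised counts with inhibitor, 394, 175 and 244 with vehicle and 90.7, 81.3 and 69.8 in sham knees (adjusted p = 0.79). Ccl7, a monocyte-attracting chemokine, had 21.8, 107 and 68.8 with inhibitor, 96.4, 93.9 and 117 with vehicle and 0, 1.31 and 0 in sham knees (adjusted p = 0.576). Il1b and Ccl7 were chosen after their values were seen. In both, inhibitor 2 lay within the vehicle range. Cxcl12, the chemokine that holds blood cells in marrow, lay higher in all 3 inhibitor libraries (1365, 1088 and 1002 against 832, 586 and 906, log2 fold change 0.57, adjusted p = 0.241), near its sham level of 1337, 1167 and 1109.

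Few genes of cell division, haem synthesis and energy metabolism passed. All 20 tested cell cycle genes had a negative fold change (median −0.38, or −0.16 without inhibitor 1, which was the lowest of the 6 libraries in all 20), and none passed (6 lower and 0 higher at an unadjusted p under 0.05, 1 lower and 0 higher in DESeq2). Mki67, the proliferation marker, had 461, 619 and 1686 against 1799.5, 3778 and 2545 (log2 fold change −1.56, adjusted p = 0.191). Outside that list, Lig1, the DNA ligase of replication (112, 170.2 and 149 against 253, 319.8 and 295, adjusted p = 0.0417), and Cntrl, a protein of the centriole (85.5, 90.0 and 119 against 226, 247 and 271, adjusted p = 0.0325), did pass. Brca1, Espl1, Troap, Chtf18 and Haus5, which serve DNA repair, chromatid separation and the spindle, passed too and were chosen after their values were seen, and Haus5 shares exon bases with a predicted gene on its strand. Ppox, the next-to-last enzyme of haem synthesis (chromosome 1, 171275990 to 171281186), had 87.8, 83 and 197 normalised counts with inhibitor, 347, 461 and 355 with vehicle and 369, 421 and 355 in sham knees (log2 fold change −1.69, SE 0.29, adjusted p = 0.0234). It was the single gene to pass among 9 haem enzymes (median −0.45, or −0.27 without inhibitor 1), and inhibitor 3 lay above inhibitor 1 and 2 in it. In the other direction, all 21 tested subunits of oxidative phosphorylation had a positive fold change (median 0.41, or 0.26 without inhibitor 1), 9 did not overlap and none passed (0 lower and 7 higher at an unadjusted p under 0.05, 0 lower and 0 higher in DESeq2). Over all tested genes, 8.44% lay above vehicle without overlap and 5.19% were higher at that unadjusted p. Cox6c and Cox4i1 of cytochrome oxidase had log2 fold changes of 0.62 (adjusted p = 0.19) and 0.56 (adjusted p = 0.224). Ribosomal proteins were positive in 23 of 24 (median 0.18), with none that passed (0 lower and 0 higher at an unadjusted p under 0.05, 0 lower and 0 higher in DESeq2).

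**Figure D4:**
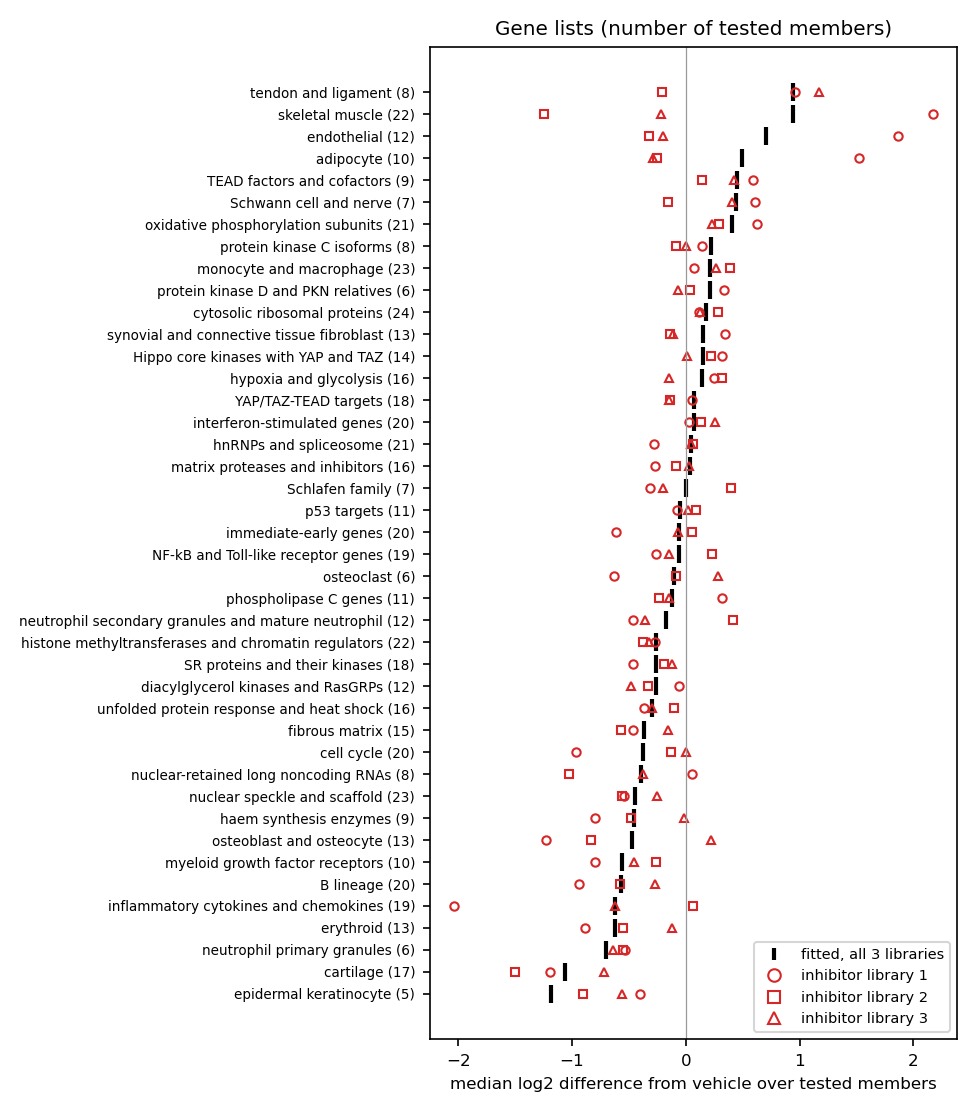
Median log2 difference from vehicle over the tested members of each gene list with at least 5 tested members, as fitted (black bar) and in each inhibitor library against the vehicle mean (red symbols). Muscle, endothelial, adipocyte and cytokine lists are pulled by inhibitor 1, while cartilage, primary granule, speckle and chromatin lists lie below 0 in all 3 inhibitor libraries.

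Copies of 5S ribosomal RNA, the small RNA of the large ribosomal subunit that RNA polymerase III makes, were lower by more than most protein-coding genes. Of 190 gene models, 37 were tested, all 37 had a negative fold change and 16 passed, with log2 fold changes from −2.85 to −2.10. These are not 16 separate results, since all 16, and 32 of the 37, have identical sequences in the GENCODE M21 transcripts. A read from within 1 of these identical copies matches the others, and the authors counted multi-mapping reads at each reported location, so the calls can rest on shared reads. The counts of the copies were not equal, with 2.6 in n-R5s138 and 16.9 in n-R5s107 in inhibitor 3. How far reads were shared was not tested. Summed over the models the level was 569 ± 325 with inhibitor, 3231 ± 1874 with vehicle and 4829 ± 1422 in sham knees (SD, n = 3 each). Ribosomal RNA was depleted before sequencing, so these reads are what depletion left, and its part in the difference was not tested.

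Sham knees place these genes on a common scale. Of the 97 lower genes, 94 had all 3 inhibitor libraries below all 3 sham libraries as well, and the median log2 difference was −1.51 for inhibitor minus sham and −0.03 for vehicle minus sham. At an adjusted p under 0.05 in edgeR, 79 of the 97 were also lower in inhibitor than in sham knees. These contrasts share the libraries by which the 97 were chosen, so low values against sham follow in part from that choice. The share of all tested genes that lay below sham in the same way was not computed. The values serve as a scale only. A pair of models stood apart from this pattern and was chosen after its values were seen. Gm10719 had 0.75, 1.95 and 2.6 normalised counts with inhibitor, 68.1, 42.8 and 64.1 with vehicle and 17.4, 0 and 1.89 in sham knees, and Gm10722 had 4.5, 2.34 and 5.19 with inhibitor, 108, 44 and 87.3 with vehicle and 51.2, 2.62 and 15.1 in sham knees. Both are predicted models on chromosome 9 with few counts.

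The lower protein-coding genes had transcripts of higher GC content than tested genes in general. Their median was 54.8% against 49.8% for tested protein-coding genes, while the 4 higher genes had 44.7%. Over all tested protein-coding genes the median log2 fold change went from 0.17 in the lowest of 10 equal groups by GC content to −0.11 in the highest, and each of the 3 inhibitor libraries showed this order of the extremes. The lowest group held 3 of the lower genes and the highest 18. With this trend removed from each library, an analysis added after the data were seen, 40 lower genes and 1 higher gene passed, all 40 of them among the 97. Srrm2 then stood at −1.46 (adjusted p = 0.0347) and Safb2 at −1.53 (adjusted p = 0.0387). What sets the trend was not tested.

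**Figure D5:**
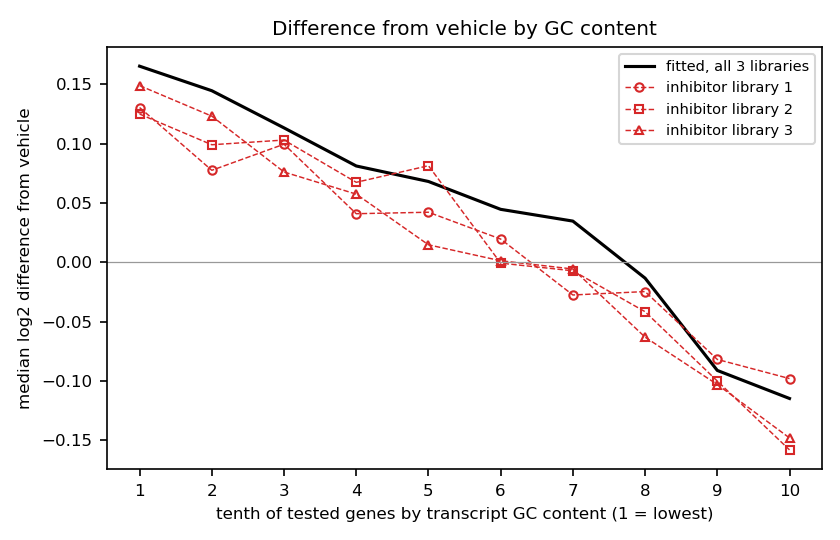
Median log2 difference from vehicle of tested protein-coding genes in 10 equal groups by GC content of their longest transcript, as fitted (line) and in each inhibitor library (symbols). The medians pass from about 0.17 in the lowest group to about −0.11 in the highest.

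Promoter windows of the lower genes were searched for short motifs on both strands. RefSeq windows of 300 bases on GRCm38.p6 were found for 57 of the 73 protein-coding lower genes (68 windows) and for 9646 of 12251 tested protein-coding genes (12322 windows). The AP-1 motif TGANTCA, the element through which phorbol esters, which activate PKC, drive many genes, was in 1 window (1.47%), that of Uba7, against 5.28% of tested windows. The TEAD motif CATTCC was in 8.82% against 12.2%, and the CRE motif TGACGTCA in 5.88% against 2.88%. The 4 windows with a CRE match belong to Csf2ra, Haus5, Troap and Zfp335. The GC box GGGCGG was in 54.4% against 61.6%. Further motifs searched were NRF1 (14.7% against 9.6%), NF-kB (0% against 1.7%) and YY1 (0% against 1.5%). ETS (7.4% against 7.8%), NF-Y (38.2% against 37.3%) and TATA (5.9% against 7.3%) complete the set. The counts are small, and a match of letters is not a binding site.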

How the data were processed

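The deposited raw counts per gene were used for the 9 libraries of the first set. The authors counted read pairs with featureCounts 2.0.1 on the reverse strand over GENCODE M25, with multi-mapping and overlapping reads counted in full at each gene, per the file headers. The submitters' processing notes list HISAT2 as a tool and mm10 as the build, without their roles. A further 27 columns matched no sample label and were not analysed here.

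From these counts, edgeR 4.0.16 (R 4.3.3; limma 3.58.1) gave TMM scaling, the filterByExpr filter, robust quasi-likelihood F tests over all 9 libraries, two-sided, and Benjamini-Hochberg adjustment over all 13823 tested genes. Adjusted p-values come from it unless DESeq2 1.42.0 is named. The SE is the log2 fold change over the square root of F. List medians in single libraries use log2 of the normalised count plus 8. GENCODE M21 gave biotypes and GC content (13582 genes matched), RefSeq the promoters. Total counts were 124 to 202 M, protein-coding counts 1.09 to 4.51 M.

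Genes were named if higher, among the 24 protein-coding lower genes of smallest p averaging at least 1 CPM, called in 1 of 43 lists, among the 4 largest changes of a list at 1 CPM, or PKC isoforms, Ccn1, Ccn2, Ankrd1, Yap1 or Wwtr1. Others were chosen after their values were seen. Some items are not reported here. The members and lists were chosen with earlier results of these data known. On simulated counts for this comparison (13124 genes fitted), 8 of 94 genes changed 2-fold and 68 of 97 changed 4-fold were recovered, with 14 false calls. Alternatives were DESeq2, RLE, no filter, 6 libraries, a replicate block, a muscle covariate, protein-coding genes alone, each library left out, and, added after seeing the data, removal of the GC trend and DESeq2 without inhibitor 1. Figures were drawn with matplotlib in Python.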

Additional observations from a re-analysis of the deposited data

How the results depend on the processing

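Lower and higher genes numbered 97 and 4. DESeq2 gave 305 and 50, unfiltered genes 379 and 175, and the muscle covariate 277 and 49. They were 3 and 0 with only the 6 compared libraries in the fit (1582 at an unadjusted p under 0.05), 15 and 5 without inhibitor 1 and 2 together, and 97 and 3 with RLE size factors. With protein-coding genes alone they were 73 and 3. With each of the 9 libraries left out in turn, lower genes ranged from 0 (without vehicle 2) to 244 (without inhibitor 3) and higher genes from 0 to 23. The extra alternatives, chosen after seeing the data, gave 40 and 1 with the GC trend removed, and 206 and 11 in DESeq2 without inhibitor 1. The replicate block gave 102 and 1, with 69 of the 97 lower genes and 1 of the 4 higher genes still called. Same-numbered vehicle and inhibitor libraries did not deviate together over all genes (correlations 0.04, −0.02 and −0.05). These values cannot settle whether the numbers pair the samples. The 97 lower genes kept a negative fold change in each alternative that tested them (96 of them in the fit of 6 libraries, 73 with protein-coding genes alone). They were chosen in these same libraries, and none overlapped with vehicle. Their sign could therefore hardly turn, and its keeping is no further support. Direction turned in 6 named genes, none of which passed. With single libraries left out, Prkca ranged from −0.000376 to 0.48, Prkcq from −0.68 to 1.40, Ankrd1 from −0.34 to 0.71, Myh2 from −0.14 to 3.07 and Arg1 from −1.48 to 0.13. Prkcq was −0.10 with the muscle covariate. Without inhibitor 1 and 2, Prkcq, Ankrd1, Myh2 and S100a9 were −1.80, −0.27, −0.0839 and −0.0829. In DESeq2 without inhibitor 1, Prkcq, Ankrd1, Myh2 and Arg1 were −0.74, −0.35, −0.15 and 0.11. The cause of these changes was not tested. On counts simulated for this comparison, 8.51% of 2-fold and 70.1% of 4-fold changes were recovered, so changes of these sizes can be missed. Beside the 8 and 68 genes recovered, 14 unchanged genes passed there, so some of the 101 calls can be false.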

Other observations

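Several further gene groups held few or no genes that passed between inhibitor and vehicle knees. Interferon-stimulated genes had a median log2 fold change of 0.07 over 20 tested genes, with 8 negative and 12 positive. Within the Schlafen family, where Slfn5 rose, Slfn4 had 45.8, 118 and 138 normalised counts with inhibitor against 206, 301 and 431 with vehicle (adjusted p = 0.233). Immediate-early genes, which signalling switches on within minutes, had a median of −0.06 over 20 genes, and p53 targets −0.05 over 11. Genes of the unfolded protein response and heat shock were negative in 13 of 16 (median −0.30, with −0.37, −0.10 and −0.30 in inhibitor 1, 2 and 3), and genes of hypoxia and glycolysis positive in 12 of 16 (median 0.14). None of these lists had a gene that passed in edgeR apart from Slfn5. At an unadjusted p under 0.05 there were 1 interferon-stimulated, 1 immediate-early, 3 p53 target, 1 stress response and 1 hypoxia gene, and DESeq2 called none of these, while in the Schlafen family it called 1 lower and 1 higher.

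Among lower genes that no fixed list holds, and which were chosen after their values were seen, several encode channels and receptors. Kcnn4, the calcium-activated potassium channel of leukocytes and red cells, had 44.3, 48.3 and 80.5 with inhibitor, 158, 177 and 192 with vehicle and 134, 129.8 and 173 in sham knees (log2 fold change −1.64, SE 0.26, adjusted p = 0.0211). Tmc8, a transmembrane channel-like protein of lymphocytes, had 18, 23 and 28.6 with inhibitor, 88.1, 147 and 106 with vehicle and 110.5, 76 and 130.1 in sham knees (log2 fold change −2.32, SE 0.31, adjusted p = 0.0209). Tnfrsf14, a receptor of the tumour necrosis factor family, had 62.3, 69.3 and 101 with inhibitor, 191, 259 and 162 with vehicle and 247, 179.6 and 206 in sham knees (log2 fold change −1.41, SE 0.25, adjusted p = 0.0234). In Kcnn4, Tmc8 and Tnfrsf14 the highest inhibitor library lay below the lowest of the 6 other libraries.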
